A study of Mus musculus with 2 samples.

Results

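The genes of major histocompatibility complex (MHC) class I antigen processing were measured in single-cell RNA profiles of subcutaneous mouse tumours. The genes were chosen by symbol and comprised H2-K1, H2-D1, B2m, Tap1, Tap2, Tapbp, Psmb8, Psmb9, Psmb10 and Nlrc5. All 10 were present among the 32285 genes of both deposited count matrices. One group of tumours grew in mice fed a diet free of serine and glycine (titled SG, 1 library) and the other in mice fed a control diet (titled CT, 1 library). The abbreviated titles were matched to the diets through the series' design text. The sources used here do not name the tumour line, the mouse strain, the age or the number of animals behind each library. The protocol text speaks of human heart tissue, which goes against the mouse tumour labels, so its details of tissue handling may not apply. With 1 library per diet no difference could be tested against the spread between animals, and the diet cannot be told apart from the library. Ranges in parentheses are 95% intervals for counting error only.

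MHC class I molecules display peptides from inside the cell to CD8 T cells. The proteasome cuts proteins into peptides, and interferon replaces its constitutive catalytic subunits with the immunoproteasome subunits encoded by Psmb8, Psmb9 and Psmb10. The transporter made by Tap1 and Tap2 moves the peptides into the endoplasmic reticulum, where tapasin, the product of Tapbp, bridges the transporter to empty class I molecules. H2-K1 and H2-D1 encode classical heavy chains, B2m encodes the light chain that each of them needs to reach the surface, and Nlrc5 encodes a transactivator of class I promoters. Interferon gamma is a known inducer of the whole pathway, and reduced expression of these genes is a known way for tumour cells to avoid CD8 T cells.

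On mouse build mm10, 7 of the genes lie on chromosome 17. Psmb9 (chr17:34181987-34187764, minus strand) and Tap1 (chr17:34187553-34197225, plus strand) overlap at their divergent starts, and Psmb8 (chr17:34197721-34201454) and Tap2 (chr17:34203527-34216321) follow on the plus strand. H2-K1 (chr17:33996017-34000347, minus strand) and Tapbp (chr17:33915899-33929292, plus strand) lie to one side of this group and H2-D1 (chr17:35262730-35267499, plus strand) to the other. Psmb10 (chr8:105935735-105938444, minus strand) and Nlrc5 (chr8:94434356-94527272, plus strand) are on chromosome 8, and B2m (chr2:122147686-122153083, plus strand) is on chromosome 2. H2-K1, H2-D1 and the H2-Q genes are near copies of one another, so the split of reads among them is uncertain where the haplotype of the mice differs from the reference.

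RefSeq promoter entries of build GRCm38.p6 were matched by symbol for 8 of the 10 genes. The stretches below are shown because the heavy chain and light chain genes carry an interferon-type and an NF-kB-type motif side by side. Capitals mark the motif matches, and each sequence is written 5′ to 3′ on the strand of its gene.
H2-K1 (chr17:34000429-34000458, minus strand, bases -111 to -82 from the start): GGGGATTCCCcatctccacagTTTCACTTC
H2-D1 (chr17:35262923-35262952, plus strand, bases -171 to -142 from the start): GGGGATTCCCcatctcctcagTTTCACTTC
B2m (chr2:122147548-122147570, plus strand, bases -139 to -117 from the start): GAAACTGAAAatgGGAAAGTCCC
The H2-K1 and H2-D1 stretches shared 29 of 30 bases and differed by A18T, with positions counted from 1 at the 5′ end and the H2-K1 base first. The H2-D1 stretch also lies within an exon of another annotated H2-D1 transcript. Both strands of the 250 bases before each start were searched for an interferon response element (GAANNGAAA, or the longer spelling GAAA, any 2 bases and GAAA), an NF-kB motif (GGG, any 2 bases, TT, any base and CC), an interferon gamma activated site (TTCNNNGAA) and CCAAT, letters that were chosen with the members' sequences known. The matches in capitals do not overlap one another. Of 27025 promoters, 6.34% held the shorter and 3.04% the longer interferon response spelling. The NF-kB motif was held by 4% of promoters, TTCNNNGAA by 7.18% and CCAAT by 34.5%. Of the 8 genes with an entry, 3 (H2-K1, H2-D1 and B2m) held an interferon response motif, the same 3 held the NF-kB motif, 1 (Psmb8) held TTCNNNGAA and 6 held CCAAT.

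After cell filters and removal of called doublets, 19240 cells of the serine/glycine-free library and 13624 of the control library remained, with medians of 7349 and 11321.5 unique molecular identifiers (UMIs, tags that each mark 1 captured RNA molecule) per cell. The libraries shared 87 cell barcodes. Cells were placed in classes by marker genes: a class needed at least 3 genes of its panel and 1000 CPM (UMIs scaled to a total of 1000000) over the panel. Presumed tumour cells passed no such gate, had no UMI of the leukocyte gene Ptprc and expressed at least 2 of Hmga2, Rhox5 and Krt20. There were 12637 presumed tumour cells on the serine/glycine-free diet and 10281 on the control diet. The level of the tumour panel in the other classes, which can hold free RNA or doublets, was 18.6% of the level in tumour cells in monocyte/macrophage-like cells on the serine/glycine-free diet and 8.97% on the control diet. For CD8 T-like cells this value was 11.1% on the serine/glycine-free diet and 6.75% on the control diet, and for fibroblast-like cells it was 42.8% on the serine/glycine-free diet and 34.5% on the control diet. Cells that passed the neutrophil gate reached 84.2% on the serine/glycine-free diet and 36.8% on the control diet, and their own panel stood at 10698 CPM on the serine/glycine-free diet against 72660 CPM on the control diet. These cells are therefore called neutrophil-gated below. A leukocyte list of 9 genes summed to 22.3 CPM in presumed tumour cells on the serine/glycine-free diet and 15.3 CPM on the control diet, with Ptprc at 0 by the gate. Arhgdib was left out of this sum because it stood in presumed tumour cells at 220 CPM on the serine/glycine-free diet and 214 CPM on the control diet.

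Taken as a share of all UMIs, the 10 genes made up 0.846% in presumed tumour cells on the serine/glycine-free diet and 0.741% on the control diet. In monocyte/macrophage-like cells the share was 1.26% on the serine/glycine-free diet and 1.08% on the control diet, and in CD8 T-like cells it was 1.13% on the serine/glycine-free diet and 1.24% on the control diet. Presumed tumour cells were thus below these 2 leukocyte classes in each library, though not below all. Neutrophil-gated cells had 0.776% on the serine/glycine-free diet and 0.555% on the control diet, less than presumed tumour cells. B/plasma-like cells had 0.735% on the serine/glycine-free diet, also less, and 0.870% on the control diet, which was more. Levels below are CPM over the summed UMIs of a class, and they compare classes within a gene, not genes with one another. Classes of at least 50 cells were ordered, 11 in the serine/glycine-free library and 7 in the control library.

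H2-K1, H2-D1 and B2m were at most 1.72 times the tumour level in the monocyte/macrophage-like and conventional dendritic-like cells of either library. H2-K1 was at 1277 CPM in presumed tumour cells on the serine/glycine-free diet and 999.7 CPM on the control diet. Its highest level in the serine/glycine-free library was 2714 CPM (2554 to 2881) in the 61 endothelial-like cells, and in the control library 2101 CPM (2009 to 2196) in the 289 CD8 T-like cells. The ranges of both leading classes stayed clear of the next ordered class. The 41 endothelial-like cells of the control library, too few to be ordered, held 2108 CPM (1962 to 2263), a range that overlapped that of CD8 T-like cells, and so did the range of the regulatory T-like cells there. H2-D1 was at 4206 CPM in presumed tumour cells on the serine/glycine-free diet and 3771 CPM on the control diet, close to its levels in CD8 T-like cells of 4287 CPM on the serine/glycine-free diet and 4343 CPM on the control diet. Monocyte/macrophage-like cells held more H2-D1, with 5433 CPM on the serine/glycine-free diet and 4539 CPM on the control diet. Conventional dendritic-like cells, with 3577 CPM on the serine/glycine-free diet and 3459 CPM on the control diet, held less H2-D1 than presumed tumour cells. B2m was at 1977 CPM in presumed tumour cells on the serine/glycine-free diet and 1864 CPM on the control diet, and only neutrophil-gated cells ranked below them, with ranges that overlapped those of tumour cells. Monocyte/macrophage-like cells carried 3310 CPM of B2m on the serine/glycine-free diet and 3198 CPM on the control diet, which was 1.67 times the tumour level on the serine/glycine-free diet and 1.72 times on the control diet.

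The peptide supply genes stood further above the tumour level in conventional dendritic-like cells, which are specialised in presenting antigen. There were 111 such cells on the serine/glycine-free diet and 97 on the control diet. Their Tap1 level was 358 CPM (307 to 414) on the serine/glycine-free diet and 369 CPM (320 to 423) on the control diet, which was 5.52 times the tumour level on the serine/glycine-free diet and 8.6 times on the control diet. Presumed tumour cells ranked last for Tap1 in both libraries, at 64.9 CPM on the serine/glycine-free diet and 42.9 CPM on the control diet. This last place was not clear of the classes just above, B/plasma-like cells at 70.6 CPM on the serine/glycine-free diet and neutrophil-gated cells at 45.4 CPM (5 UMIs) on the control diet, whose ranges overlapped that of tumour cells. Tap2 in conventional dendritic-like cells was at 210 CPM on the serine/glycine-free diet and 222 CPM on the control diet, which was 3.49 times the tumour level on the serine/glycine-free diet and 4.69 times on the control diet. On the serine/glycine-free diet the Tap2 range of these cells overlapped that of endothelial-like cells at 141 CPM, the next in order. The rank of plasmacytoid dendritic-like cells, lowest for Tap2, rested on 4 UMIs. Tapbp was lowest in presumed tumour cells in both libraries, at 120 CPM on the serine/glycine-free diet and 84.1 CPM on the control diet. The range overlapped that of CD8 T-like cells on the serine/glycine-free diet. On the control diet it overlapped that of neutrophil-gated cells, at 118 CPM on 13 UMIs. Tapbp stood at 250 CPM in monocyte/macrophage-like cells on the serine/glycine-free diet and 185 CPM on the control diet. The highest Tapbp classes on the serine/glycine-free diet (plasmacytoid dendritic-like, monocyte/macrophage-like, conventional dendritic-like and endothelial-like cells, 231 to 266 CPM) had overlapping ranges.

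Psmb8 and Psmb9, whose products cut substrates within the immunoproteasome, were highest in conventional dendritic-like cells in both libraries. Psmb8 was at 2008 CPM there on the serine/glycine-free diet and 1791 CPM on the control diet. Presumed tumour cells held 281 CPM of Psmb8 on the serine/glycine-free diet and 228 CPM on the control diet, so that the dendritic level was 7.14 times as high on the serine/glycine-free diet and 7.85 times on the control diet. CD8 T-like cells came next for Psmb8, with 1123 CPM on the serine/glycine-free diet and 1255 CPM on the control diet. Psmb9 reached 1510 CPM in conventional dendritic-like cells on the serine/glycine-free diet and 1528 CPM on the control diet, and presumed tumour cells held 291 CPM on the serine/glycine-free diet and 208 CPM on the control diet. Psmb10 followed another order. Monocyte/macrophage-like cells led the ordered classes, with 306 CPM on the serine/glycine-free diet and 279 CPM on the control diet. Presumed tumour cells held 153 CPM of Psmb10 on the serine/glycine-free diet and 130 CPM on the control diet. On the serine/glycine-free diet the leading range overlapped those of endothelial-like cells at 299 CPM and conventional dendritic-like cells at 250 CPM (208 to 298), so the Psmb10 leader there is not settled. The 30 plasmacytoid dendritic-like cells of the control library, too few to be ordered, held 315 CPM (215 to 444) on 32 UMIs. This range overlapped the leading one. The transactivator gene Nlrc5 was highest in CD8 T-like cells, at 168 CPM (151 to 186) on the serine/glycine-free diet and 164 CPM (139 to 192) on the control diet, against 34.4 CPM in presumed tumour cells on the serine/glycine-free diet and 31.8 CPM on the control diet. Its range in CD8 T-like cells overlapped that of the 70 Foxp3-negative CD4 T-like cells on the serine/glycine-free diet and stayed clear of the other ordered classes on the control diet. Control classes of under 50 cells were not ordered, and the ranges of Foxp3-negative CD4 T-like, regulatory T-like and B/plasma-like cells among them overlapped it.

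**Figure D1:**
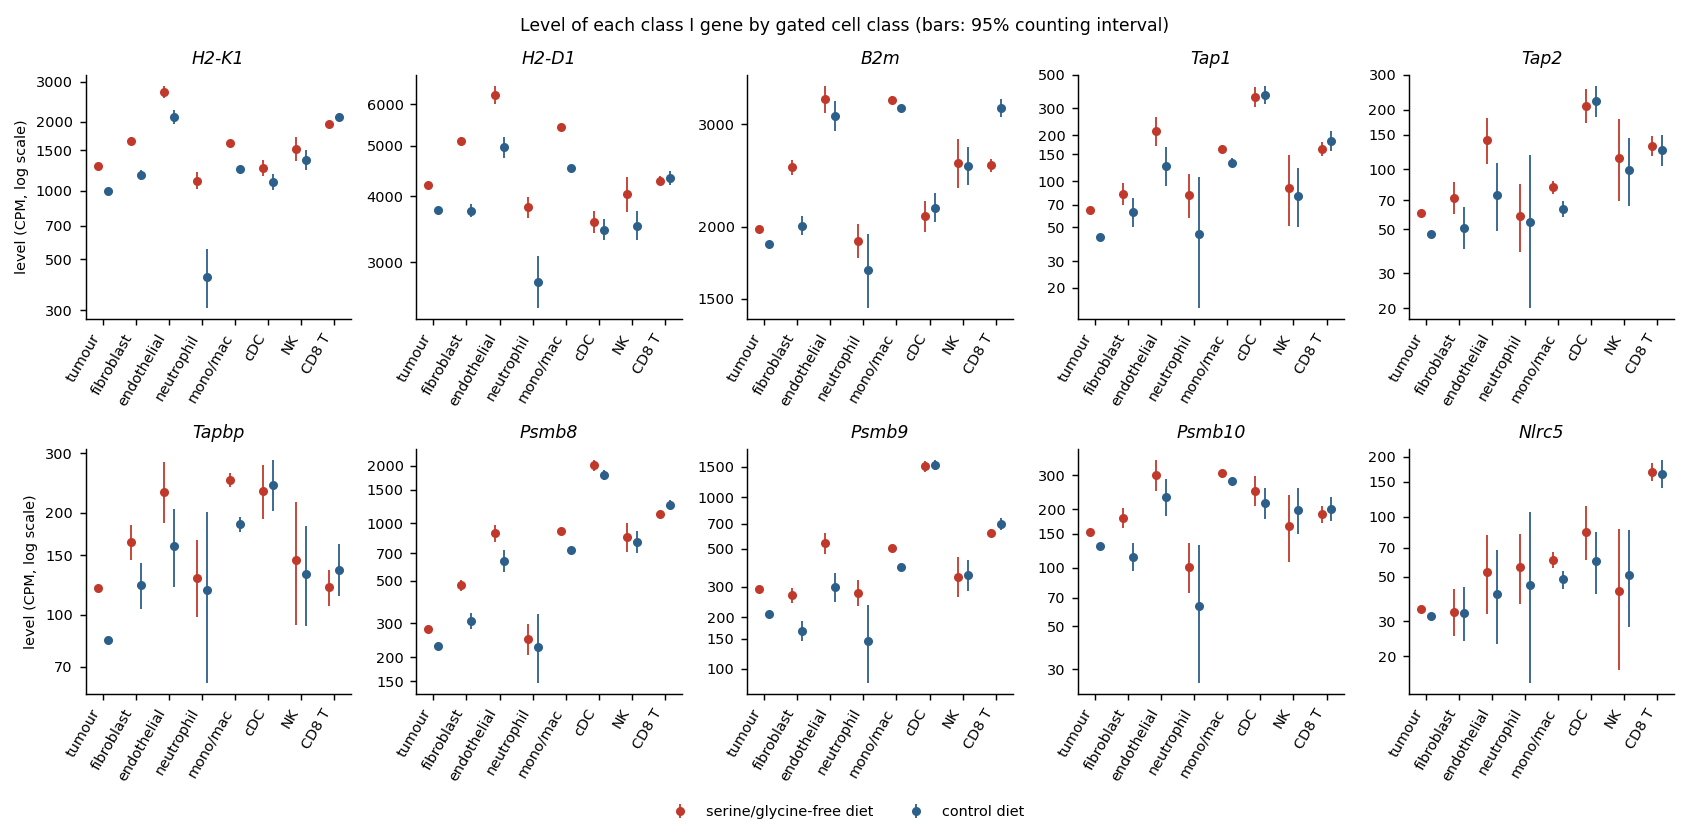
Level of each of the 10 genes (CPM, log axis, 1 panel per gene) in 8 gated cell classes, with the serine/glycine-free library in red on the left and the control library in blue on the right of each class; bars are 95% counting intervals. Conventional dendritic-like cells (cDC) stand highest for Tap1, Tap2, Psmb8 and Psmb9 among the classes drawn and CD8 T-like cells for Nlrc5, while their H2-K1, H2-D1 and B2m levels lie near those of presumed tumour cells.

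Across 18 profiles of class and library with at least 50 cells, the pairwise correlation of the members' log2(CPM + 1) ran from 0.05 for H2-D1 with Nlrc5 to 0.95 for Tap1 with Psmb9, neighbours that share a start region. The median correlation of a gene with the other members was 0.73 for Tap1 and 0.33 for H2-D1. Profiles of 1 library share its depth and free RNA, so these values describe the profiles and carry no test. Of 7146 other genes, the 10 whose profile was most like the mean of the members included Itgb1bp1 (Pearson's r 0.85), Sh3bgrl (0.84), Serpina3g (0.83), 0610010K14Rik (0.83), Yipf1 (0.83), Lypla2 (0.83), Nt5c (0.82), March2 (0.81) and Eci2 (0.81).

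Each immunoproteasome subunit replaces 1 constitutive subunit: Psmb8 replaces Psmb5, Psmb9 replaces Psmb6 and Psmb10 replaces Psmb7. Psmb8 made up 50.7% (50.3 to 51.0) of the UMIs of its pair in presumed tumour cells on the serine/glycine-free diet and 44.5% (44.2 to 44.9) on the control diet. In monocyte/macrophage-like cells the Psmb8 share was 82.3% on the serine/glycine-free diet and 77.4% on the control diet. In CD8 T-like cells it was 86.7% on the serine/glycine-free diet and 88.1% on the control diet. The Psmb8 share was thus lower in presumed tumour cells than in both leukocyte classes of each library. Psmb9 made up 62.3% (61.9 to 62.7) of its pair in presumed tumour cells on the serine/glycine-free diet and 52.5% (52.1 to 52.9) on the control diet. In monocyte/macrophage-like cells the Psmb9 share was 65.0% (63.7 to 66.2) on the serine/glycine-free diet and 55.5% (54.2 to 56.9) on the control diet, and in conventional dendritic-like cells it was 83.6% on the serine/glycine-free diet and 86.1% on the control diet. The Psmb10 share in presumed tumour cells was 44.2% (43.8 to 44.7) on the serine/glycine-free diet and 39.7% (39.2 to 40.1) on the control diet. All 3 shares in presumed tumour cells were higher on the serine/glycine-free diet than counting error covers. The same held for all 3 shares in fibroblast-like cells, for example Psmb9 at 59.6% (55.9 to 63.1) against 44.3% (39.9 to 48.8). In monocyte/macrophage-like cells it held for Psmb8 and Psmb9, while the Psmb10 ranges overlapped. In CD8 T-like and conventional dendritic-like cells the ranges of the libraries overlapped for all 3 pairs.

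**Figure D2:**
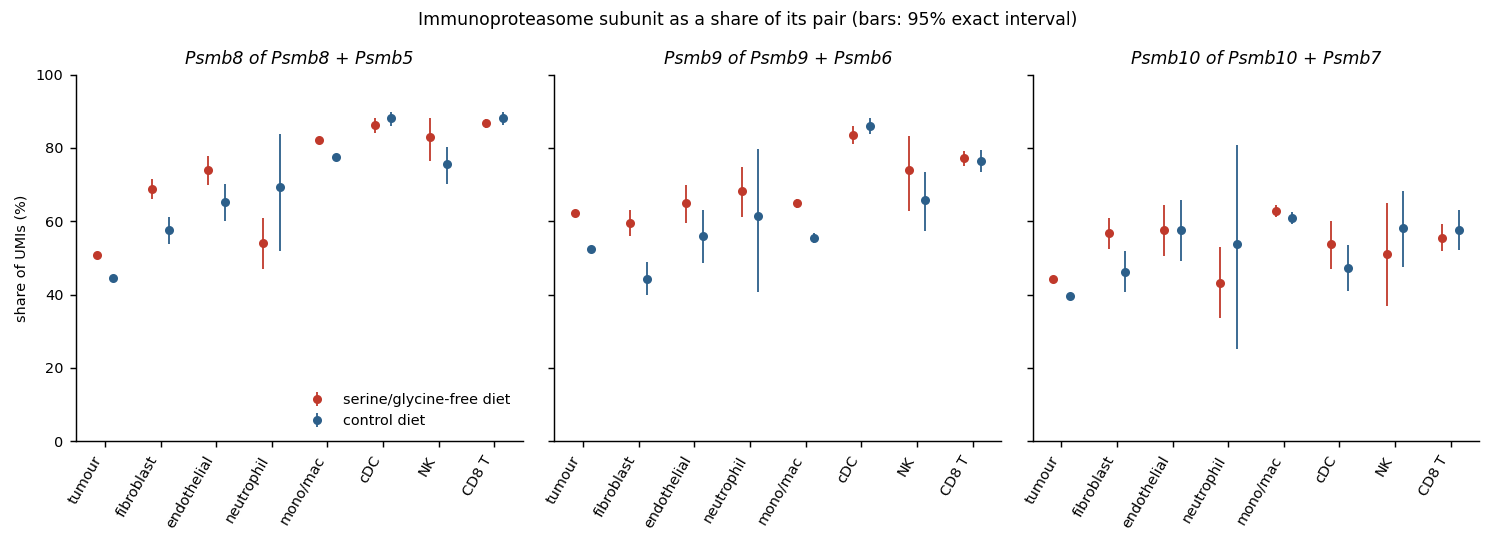
UMIs of each immunoproteasome subunit as a share of its pair (percent, axis from 0 to 100) in 8 cell classes, with the serine/glycine-free library in red on the left and the control library in blue on the right; bars are exact 95% binomial intervals. In presumed tumour cells the serine/glycine-free points lie above the control points in all 3 panels, at 50.7% against 44.5% for Psmb8, 62.3% against 52.5% for Psmb9 and 44.2% against 39.7% for Psmb10.

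Presumed tumour cells were then divided by the Gbp genes, which encode guanylate-binding proteins and are among the strongest targets of interferon gamma. Every cell with at least 3000 UMIs was thinned to 3000 UMIs. Cells with 2 or more thinned UMIs over 10 Gbp genes were called Gbp-positive and cells with none Gbp-negative. Gbp-positive cells were 36.6% (35.8 to 37.5) of 12489 presumed tumour cells on the serine/glycine-free diet and 22.3% (21.5 to 23.1) of 10245 on the control diet, with 148 and 36 shallower cells left out. Gbp-negative cells were 41.6% on the serine/glycine-free diet and 56.9% on the control diet. Of the Gbp-negative cells, 52.1% in each library had a Gbp UMI before thinning, so this group was low in Gbp transcripts and not free of them. Depth differed between the libraries, so these equal shares do not show an equal Gbp level. Median depth was 9228 UMIs in Gbp-positive and 9482 UMIs in Gbp-negative cells on the serine/glycine-free diet, and 12465 and 13390.5 UMIs on the control diet. The leukocyte list stood at 22.8 CPM in Gbp-positive and 21.7 CPM in Gbp-negative cells on the serine/glycine-free diet, and at 16.4 and 14.6 CPM on the control diet. The log2 ratio of Arhgdib between Gbp-positive and Gbp-negative cells was -0.07 on the serine/glycine-free diet and -0.11 on the control diet.

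All 10 genes were higher in Gbp-positive than in Gbp-negative tumour cells of both libraries, and the peptide supply genes differed by more than the class I chains. At least 25% higher were 9 of 10 genes on the serine/glycine-free diet, where 14.6% of 12821 genes passed that limit, and 9 of 10 on the control diet, where 12.2% of 12946 genes passed it. The exception in both was H2-D1. The median log2 ratio of the 10 genes was 1.22 on the serine/glycine-free diet and 1.33 on the control diet, against medians over all genes of 0.06 on the serine/glycine-free diet and 0.04 on the control diet. Psmb10 had the largest ratio: 248 CPM in Gbp-positive and 82.6 CPM in Gbp-negative cells on the serine/glycine-free diet (3.01-fold), and 269 against 81.0 CPM on the control diet (3.32-fold). Psmb8 differed 2.33-fold on the serine/glycine-free diet and 2.58-fold on the control diet, and Psmb9 2.38-fold on the serine/glycine-free diet and 2.63-fold on the control diet. Thus all 3 immunoproteasome genes were more than doubled in Gbp-positive cells. Tap1 was at 97.6 CPM in Gbp-positive and 41.2 CPM in Gbp-negative cells on the serine/glycine-free diet (2.37-fold), and at 83.5 against 28.9 CPM on the control diet (2.89-fold). Tap2 differed 2.32-fold on the serine/glycine-free diet and 2.49-fold on the control diet, and Tapbp 2.37-fold on the serine/glycine-free diet and 2.55-fold on the control diet. The Nlrc5 ratios were smaller, 1.98-fold on the serine/glycine-free diet and 1.89-fold on the control diet. H2-K1 was at 1461 CPM in Gbp-positive and 1113 CPM in Gbp-negative cells on the serine/glycine-free diet (1.31-fold), and at 1251 against 884 CPM on the control diet (1.41-fold). B2m differed 1.28-fold on the serine/glycine-free diet and 1.3-fold on the control diet, and H2-D1 1.22-fold on the serine/glycine-free diet and 1.24-fold on the control diet. With cells holding any UMI of the leukocyte list left out, 9 of 10 genes passed the limit in each library, where 14.3% of genes did on the serine/glycine-free diet and 12.4% on the control diet.

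At the common depth of 3000 UMIs, Psmb10 was detected in 47.9% (46.5 to 49.4) of Gbp-positive and 20.2% (19.1 to 21.3) of Gbp-negative cells on the serine/glycine-free diet, and in 51.0% (48.9 to 53.1) and 21.4% (20.3 to 22.5) on the control diet. Tapbp was detected in 40.8% of Gbp-positive and 19.9% of Gbp-negative cells on the serine/glycine-free diet, and in 35.6% and 15.9% on the control diet. Detection of H2-D1 was at or above 99.8% in all 4 groups of cells, so shares of cells carry no information on it. No gated class is known to lack class I genes, so the share that free RNA alone would give could not be read from another class.

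Over 5 bins of thinned Gbp UMIs (0, 1, 2 to 3, 4 to 7 and 8 or more, with 5193, 2723, 2196, 1464 and 913 cells on the serine/glycine-free diet and 366 cells in the top bin of the control library), every one of the 10 genes increased from the lowest bin to the highest. Psmb10 increased on the serine/glycine-free diet through 82.6, 125, 178, 265 and 405 CPM, and reached 466 CPM in the top bin of the control library. H2-K1 increased on the serine/glycine-free diet through 1113, 1280, 1384, 1481 and 1627 CPM and reached 1405 CPM in the top bin on the control diet. The constitutive subunits showed no such increase, with Psmb5 at 278 CPM in the lowest and 257 CPM in the highest bin, Psmb6 at 175 and 174 CPM and Psmb7 at 195 and 186 CPM on the serine/glycine-free diet.

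**Figure D3:**
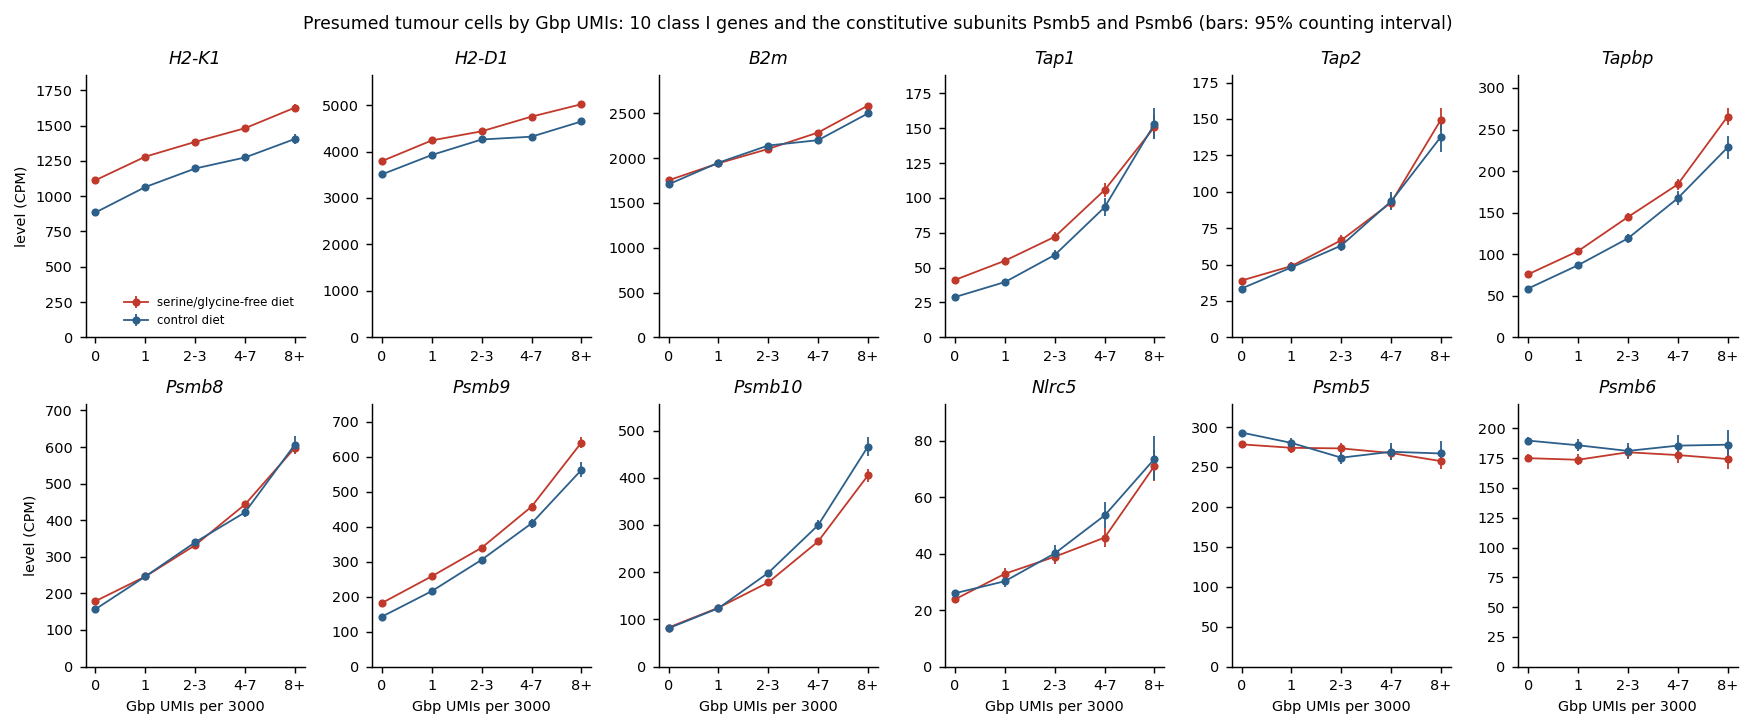
Level (CPM, axes from 0) of the 10 genes and of the constitutive subunits Psmb5 and Psmb6 in presumed tumour cells over 5 bins of Gbp UMIs per 3000 UMIs, with the serine/glycine-free library in red and the control library in blue; bars are 95% counting intervals. All 10 class I genes climb over the bins, Psmb10 from 82.6 to 405 CPM on the serine/glycine-free diet, while Psmb5 and Psmb6 stay nearly level.

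Over all presumed tumour cells, each of the 10 genes was higher on the serine/glycine-free diet than on the control diet, with every counting interval above 0. At least 25% higher were 5 of 10 genes, where 13.6% of 14597 genes passed that limit, and the median log2 ratio was 0.32 against 0.03 over all genes. Tap1 led with a log2 ratio of 0.60 (0.55 to 0.64), from 64.9 CPM on the serine/glycine-free diet and 42.9 CPM on the control diet. Tapbp followed with 0.52 (0.48 to 0.55), and Psmb9 with 0.49 (0.46 to 0.51). H2-K1 had 0.35 (0.34 to 0.36), and Tap2 0.35 (0.30 to 0.40). The other 5 genes stayed under the limit, with Psmb8 at 0.30, Psmb10 at 0.23, H2-D1 at 0.16, Nlrc5 at 0.11 and B2m at 0.08. H2-K1 and Tap2 lay below the limit when scaling left out mitochondrial and ribosomal-protein genes and when each cell's CPM was averaged, which left 3 of 10 genes in both cases. Without cells holding any UMI of the leukocyte list the count was 5, where 12.9% of 14059 genes passed the limit.

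Within the Gbp groups the diets differed less. The Gbp level within a group was not matched between the libraries. In Gbp-positive tumour cells 0 of 10 genes were at least 25% higher on the serine/glycine-free diet, where 11% of 12518 genes were. In Gbp-negative cells 4 of 10 were (H2-K1, Tap1, Tapbp and Psmb9), where 11% of 13228 genes were. For all 10 genes the ratio over all tumour cells was larger than the ratio in either group. Tap1 had a log2 ratio of 0.23 (0.16 to 0.29) in Gbp-positive and 0.51 (0.43 to 0.60) in Gbp-negative cells. H2-K1 had 0.22 (0.21 to 0.24) in Gbp-positive and 0.33 (0.32 to 0.35) in Gbp-negative cells. Psmb10 was lower on the serine/glycine-free diet in Gbp-positive cells, at -0.12 (-0.16 to -0.07), and near equal in Gbp-negative cells, at 0.03 (-0.03 to 0.08). Nlrc5 was at -0.06 (-0.16 to 0.03) in Gbp-positive and at -0.12 (-0.22 to -0.02) in Gbp-negative cells, and above 0 over all tumour cells. Cells with 1 thinned Gbp UMI belong to neither group but count among all tumour cells. Their Nlrc5 level was 32.9 CPM (30.8 to 35.0) on the serine/glycine-free diet and 30.2 CPM (28.3 to 32.3) on the control diet. B2m stood at 0.03 in Gbp-positive and 0.04 in Gbp-negative cells.

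**Figure D4:**
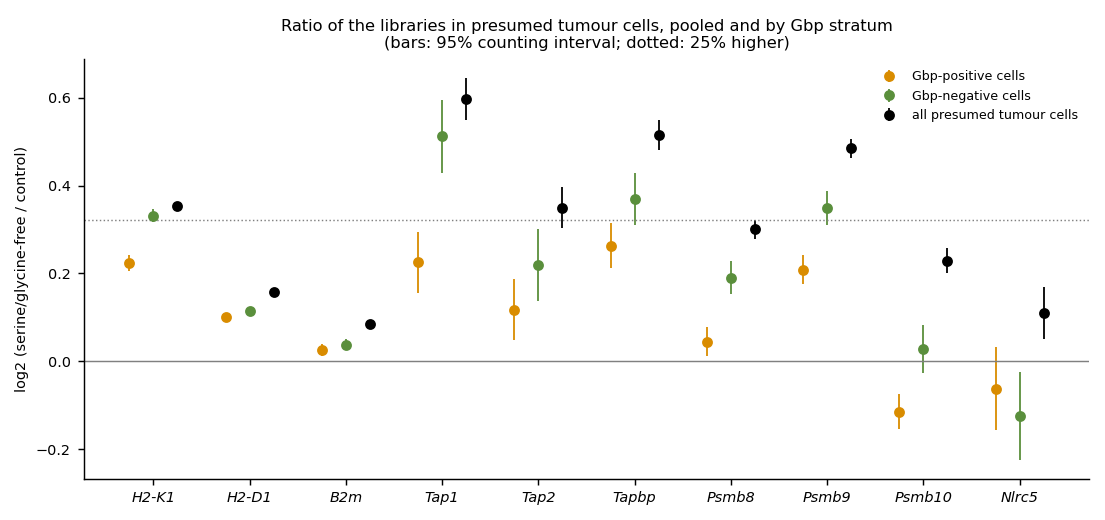
Log2 ratio of the serine/glycine-free over the control library for the 10 genes in presumed tumour cells, with Gbp-positive cells in orange, Gbp-negative cells in green and all tumour cells in black; bars are 95% counting intervals and the dotted line marks 25% higher. The black point is the highest of the 3 for every gene, and for Nlrc5 it lies above 0 while the orange and green points lie below it.

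In monocyte/macrophage-like cells (2021 on the serine/glycine-free diet and 1539 on the control diet) all 10 genes were again higher on the serine/glycine-free diet, with every counting interval above 0. At least 25% higher were 5 of 10 genes, where 15.7% of 10628 genes passed that limit, and the median log2 ratio was 0.32 against 0.02 over all genes. H2-K1 was at 1616 CPM on the serine/glycine-free diet and 1246 CPM on the control diet, a log2 ratio of 0.37 (0.34 to 0.41). Tapbp was at 250 CPM on the serine/glycine-free diet and 185 CPM on the control diet (0.44, 0.33 to 0.54). The others past the limit were Tap2 (0.36), Psmb9 (0.37) and Psmb8 (0.33). B2m differed least, with 0.05 (0.02 to 0.08). When the cells with any tumour-panel UMI were left out, 1452 cells remained on the serine/glycine-free diet and 1161 on the control diet, and 7 of 10 genes passed the limit, where 12.1% of 9477 genes did.

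CD8 T-like cells (849 on the serine/glycine-free diet and 289 on the control diet) did not show this pattern. Of the 10 genes, 0 were at least 25% higher on the serine/glycine-free diet, where 19.2% of 7248 genes were, and the median log2 ratio was -0.13 against 0.04 over all genes. B2m was lower past that limit, at 2551 CPM on the serine/glycine-free diet and 3207 CPM on the control diet, a log2 ratio of -0.33 (-0.39 to -0.27), where 12.3% of genes were lower past the limit. With doublets kept the B2m ratio was -0.25, which lies inside the limit. Psmb8 at -0.16 (-0.26 to -0.06), Psmb9 at -0.17 (-0.31 to -0.03) and H2-K1 at -0.10 (-0.18 to -0.02) were also lower beyond counting error. The ranges of the remaining 6 genes included 0, with Nlrc5 at 0.04 (-0.24 to 0.32).

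Endothelial-like cells, which line vessels, were few (61 on the serine/glycine-free diet and 41 on the control diet). There 9 of 10 genes were at least 25% higher on the serine/glycine-free diet, where 21.8% of 2935 genes were, and B2m was the exception at 0.09 (-0.02 to 0.21). Psmb9 was at 538 CPM on the serine/glycine-free diet and 299 CPM on the control diet, a log2 ratio of 0.85 (0.51 to 1.19). Tap2 had the largest ratio, 0.92 (0.24 to 1.64), on 56 UMIs on the serine/glycine-free diet and 27 on the control diet. With doublets kept, 4 of 10 genes passed the limit (Tap1, Tap2, Tapbp and Psmb9). Nlrc5, which had 21 UMIs on the serine/glycine-free diet and 15 on the control diet, passed this limit as reported with an interval from -0.67 to 1.42, and the interval of Psmb10, also past it, was -0.04 to 0.80. The counting intervals of 7 genes lay above 0. Marker panels of leukocytes moved in the same direction: the T cell panel summed to 90.5 CPM on the serine/glycine-free diet and 0 on the control diet, and the monocyte/macrophage panel to 234 CPM on the serine/glycine-free diet and 90.6 CPM on the control diet. Their part in the ratios was not tested.

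Fibroblast-like cells (245 on the serine/glycine-free diet and 145 on the control diet) also had 9 of 10 genes at least 25% higher on the serine/glycine-free diet, where 21.4% of 7354 genes were, with Nlrc5 the exception. Psmb9 was at 268 CPM on the serine/glycine-free diet and 166 CPM on the control diet, a log2 ratio of 0.69 (0.46 to 0.93). H2-K1 had 0.49 (0.40 to 0.58) and B2m 0.33 (0.26 to 0.41). The counting intervals of 8 genes lay above 0. Tap1, counted among the 9, had 0.40 (-0.01 to 0.81), and -0.12 without tumour-panel cells. Their tumour-panel levels of 42.8% on the serine/glycine-free diet and 34.5% on the control diet moved with these ratios, and when a gate of 2 panel genes was used the count was 1 of 10 (Psmb9). With tumour-panel cells left out, 60 cells remained on the serine/glycine-free diet and 32 on the control diet, and 8 of 10 genes passed the limit, where 24.6% of 1822 genes did. The part of tumour RNA in these ratios was not tested beyond these values.

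In the remaining classes fewer ratios lay beyond counting error. In conventional dendritic-like cells 1 of 10 genes (Nlrc5) was at least 25% higher on the serine/glycine-free diet, where 19.4% of 3493 genes were, and its interval of -0.21 to 1.19 included 0. In NK-like cells (56 on the serine/glycine-free diet and 52 on the control diet) 0 of 10 genes passed the limit, where 29.4% of 1504 genes did, and only 7 of the 10 had 50 UMIs or more. Neutrophil-gated cells (140 on the serine/glycine-free diet and 102 on the control diet) had 5 of 10 genes past the limit, where 54.1% of 2075 genes were, and the median log2 ratio of 0.39 lay below the 0.50 of all genes. Of the 10 genes, 7 had 50 UMIs or more in these cells and 3 had intervals above 0. Tap1, counted among the 5, rested on 38 UMIs on the serine/glycine-free diet and 5 on the control diet. H2-K1 had the largest ratio of these cells, 1.40 (0.97 to 1.87), at 1106 CPM on the serine/glycine-free diet and 418 CPM on the control diet, and 0.71 with doublets kept. The tumour panel in neutrophil-gated cells, at 84.2% of the tumour level on the serine/glycine-free diet and 36.8% on the control diet, moved in the same direction. Plasmacytoid dendritic-like, Foxp3-negative CD4 T-like, regulatory T-like and B/plasma-like cells numbered 30, 22, 12 and 21 on the control diet and were not compared between the diets.

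**Figure D5:**
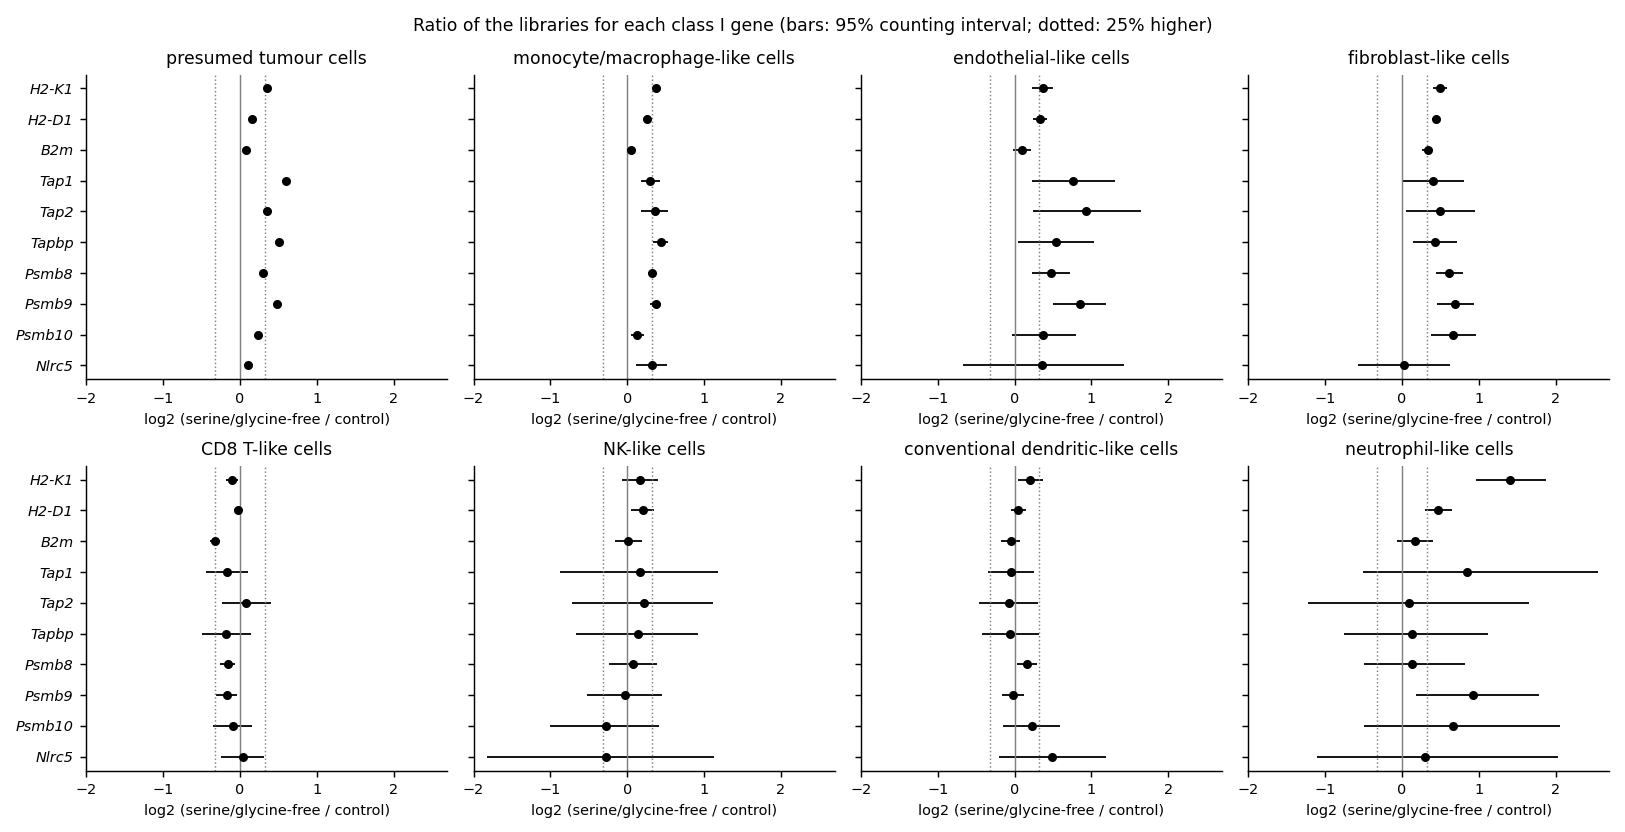
Log2 ratio of the serine/glycine-free over the control library for the 10 genes (rows) in 8 cell classes (panels); points are ratios of CPM, bars 95% counting intervals, and dotted lines mark a level 25% higher in either library. Presumed tumour, monocyte/macrophage-like, endothelial-like and fibroblast-like cells have all 10 points above 0, as do neutrophil-gated cells with wider bars, whereas in CD8 T-like cells 8 of 10 points lie below 0 and B2m, at -0.33, lies past the lower line.

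Other genes of the pathway were read from separate gene lists. Among nonclassical class I heavy chains, 5 of 11 genes with at least 50 UMIs were at least 25% higher in presumed tumour cells on the serine/glycine-free diet, against 13.6% of all genes, and 1 was lower past the limit, against 10.5%. H2-T22 was at 132 CPM on the serine/glycine-free diet and 94.7 CPM on the control diet (log2 ratio 0.48), and H2-Q6 at 8.14 CPM on the serine/glycine-free diet and 5.28 CPM on the control diet (0.63). Mr1, which encodes a molecule that presents vitamin B metabolites, was at 0.46 CPM on the serine/glycine-free diet and 1.04 CPM on the control diet, a log2 ratio of -1.17 (-1.62 to -0.73). In monocyte/macrophage-like cells 5 of 11 were past the limit, against 15.7% of all genes. Among them was H2-T23 at 383 CPM on the serine/glycine-free diet and 283 CPM on the control diet (0.44). H2-Q1 (-0.14 to 0.83) and Cd1d1 (-0.32 to 1.07), also among the 5, had intervals that included 0. The 61 UMIs of H2-M2, another of the 5, all came from the serine/glycine-free library. In Gbp-positive against Gbp-negative tumour cells 7 of 10 of this list passed the limit on the serine/glycine-free diet, against 14.6% of all genes, and 11 of 11 on the control diet, against 12.2%.

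The other parts of the proteasome were read at the same 25% limit. None of the 3 constitutive catalytic subunits and none of the 11 other 20S subunits passed it between the diets, in either direction. This held in presumed tumour cells, where 13.6% of all genes were higher past it, and in monocyte/macrophage-like cells, where 15.7% were. Psmb8 and Psmb10 did not pass it in presumed tumour cells either. Psma5, a 20S subunit, had log2 ratios of 0.26 in presumed tumour and 0.28 in monocyte/macrophage-like cells. Between Gbp-positive and Gbp-negative cells Psma5 passed the limit on the serine/glycine-free diet (0.33) and stayed under it on the control diet (0.25). The proteasome activator genes Psme1 and Psme2, which encode PA28 subunits induced by interferon gamma, had log2 ratios of 0.18 and 0.19 between the diets in presumed tumour cells and so stayed under the limit. Between Gbp-positive and Gbp-negative cells they passed it, with 0.70 and 0.65 on the serine/glycine-free diet and 0.71 and 0.68 on the control diet. Among 8 genes of peptide loading and chaperones, 1 was past the limit on each side in presumed tumour cells. These counts were near the shares over all genes, 13.6% higher and 10.5% lower. Tapbpl, which encodes the tapasin-related peptide editor, was at 20.0 CPM on the serine/glycine-free diet and 15.4 CPM on the control diet (0.38), and Hspa5, which encodes the general chaperone BiP, at 581 CPM on the serine/glycine-free diet and 738 CPM on the control diet (-0.34). The 7 peptidases measured were all within the limit between the diets in presumed tumour cells, where 13.6% of all genes were higher past it. In monocyte/macrophage-like cells 1 of the 7 passed it, near the 15.7% of all genes. This was Lap3, which encodes leucine aminopeptidase (0.34). Between Gbp-positive and Gbp-negative tumour cells 2 of the 7 peptidases passed the limit in each library. Of all genes, 14.6% passed it on the serine/glycine-free diet and 12.2% on the control diet. Erap1, which encodes the peptidase that trims peptides in the endoplasmic reticulum, had log2 ratios of 0.69 on the serine/glycine-free diet and 0.76 on the control diet. Lap3 had 0.56 on the serine/glycine-free diet and 0.70 on the control diet.

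Among 12 regulators of class I transcription, 5 were at least 25% higher in presumed tumour cells on the serine/glycine-free diet, against 13.6% of all genes. Lower past the limit were 0, against 10.5% of all genes. Stat2 had a log2 ratio of 0.53 (0.45 to 0.61), Irf9 0.48 (0.39 to 0.56) and Irf1 0.44 (0.38 to 0.50). These genes encode transcription factors of the interferon response. In monocyte/macrophage-like cells 3 of the 12 passed the limit, against 15.7% of all genes. Among them were Irf1 with 0.42 and Nfyc, which encodes a subunit of a CCAAT-binding factor, with 0.34. Stat2 at -0.08 (-0.27 to 0.11) and Irf9 at -0.12 (-0.37 to 0.13) were not higher in these cells, and both ranges included 0. Of the 4 genes for the interferon gamma receptor and its kinases, 1 (Jak2) passed the limit in presumed tumour cells, against 13.6% of all genes. Jak2 was at 36.2 CPM on the serine/glycine-free diet and 27.9 CPM on the control diet (0.38). In monocyte/macrophage-like cells 0 of the 4 passed it, against 15.7% of all genes.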

How the data were processed

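Both libraries were deposited as raw UMI counts for each gene in each cell, which the authors produced in Cell Ranger, version 7.0.1 per the file headers and 2.2.2 per the submitters' processing notes, which also name build mm10. The sources used here do not say how reads shared by near copies or overlapping genes were counted. The libraries held 20662 barcodes and 173592046 UMIs (serine/glycine-free) and 14774 barcodes and 173785388 UMIs (control). Cells with at least 500 UMIs, 300 genes and at most 20% mitochondrial UMIs were kept. Scrublet (scanpy 1.11.5, Python 3.11.15) then removed 1072 (5.28%) and 535 (3.78%) cells. Cells that passed several gates were set aside, and presumed tumour cells also needed 3 UMIs and 500 CPM over the tumour panel. UMIs were summed per class and scaled to CPM with numpy 2.4.6, scipy 1.17.1 and pandas 2.3.3. CPM carry exact Poisson intervals, ratios conditional binomial intervals and shares Clopper-Pearson intervals. Background shares cover genes with at least 50 UMIs in a comparison. The code for ratios and intervals was checked on simulated Poisson counts. These follow the model behind the intervals, so the check says nothing about variation between cells or animals. Members, lists, gates and motifs were chosen with earlier results of these data known. All 10 members are named. From other lists, genes past the 25% limit by diet with at least 200 UMIs are named, at most 4 per list and class. Otherwise, named genes were chosen after their values were seen (Psma5, Psme1, Psme2, Erap1, H2-Q1, H2-M2, Cd1d1 and the constitutive subunits). Some genes that this naming rule covers are not reported here. Per-class alternatives covered gates, doublets, scaling, mitochondrial limit, thinning, Gbp limits and averaging. Coordinates are from GENCODE annotation, promoter sequences from RefSeq.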

Additional observations from a re-analysis of the deposited data

Results flagged for a closer look

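B2m moved in opposite directions in 2 of the classes: its log2 ratio of the serine/glycine-free over the control library was 0.33 in fibroblast-like cells and -0.33 in CD8 T-like cells, a gap of 0.66. The counting intervals of both ratios lie clear of 0. Over the alternatives the fibroblast-like ratio ran from 0.18 (gate of 2 panel genes) to 0.77 (tumour-panel cells left out). The CD8 T-like ratio ran from -0.37 (centred on the median of all genes) to -0.25 (doublets kept). Both 0.18 and -0.25 lie inside the limit used for the counts. In CD8 T-like cells 1 of 10 genes (B2m) was lower past that limit, where 12.3% of all genes were. The difference between the 2 classes was not tested, since each diet had 1 library.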

How the results depend on the processing

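The counts of genes at least 25% higher kept within 1.5 times of the reported value under 79 of 91 combinations of comparison and alternative. In presumed tumour cells (5 as reported) the count was 3 when scaling left out mitochondrial and ribosomal-protein genes, 3 when each cell's CPM was averaged and 0 in Gbp-positive cells alone. In NK-like cells (0 as reported) it was 1 with 2 panel genes, 1 with 4 panel genes, 1 with averaged CPM and 1 without tumour-panel cells. In conventional dendritic-like cells (1) it was 0 without tumour-panel cells. In neutrophil-gated cells (5) it was 9 when scaling left out mitochondrial and ribosomal-protein genes and 3 when ratios were centred on the median of all genes. In fibroblast-like cells (9) it was 1 with 2 panel genes, and in endothelial-like cells (9) it was 4 with doublets kept. The counts in monocyte/macrophage-like cells (5) and CD8 T-like cells (0) and both counts over Gbp groups (9 each) did not leave that range. Leaving out tumour-panel cells and cells of the leukocyte list were alternatives added after seeing the data. Of 53 single-gene ratios past the limit as reported, 5 changed sign, under 7 combinations in all, and of 47 under it, 27 changed sign under at least 1 alternative. In neutrophil-gated cells, H2-D1 was -0.032 when centred and -0.022 without tumour-panel cells, and Psmb10 was -0.28 with doublets kept and -2.29 without tumour-panel cells. Tap1 in fibroblast-like cells was -0.12 without tumour-panel cells. In endothelial-like cells Nlrc5 was -0.042 with averaged CPM and Psmb10 -0.079 without tumour-panel cells. The causes were not tested. No paired analysis was possible because each diet had 1 library. Depth limits the rarer classes most: Nlrc5 in NK-like cells rested on 7 UMIs on the serine/glycine-free diet and 14 on the control diet.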
